A study of Mus musculus with 8 samples.

Results

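The MLL/SET1 complexes, which methylate histone H3 at lysine 4 (H3K4), were followed through their genes in the mouse line C3H10T1/2, mesenchymal stem cells that can be driven to become adipocytes. The genes were taken by symbol and number 10 of the 41325 genes listed in each library. They are the 6 catalytic subunits *Kmt2a* (which encodes MLL1), *Kmt2b*, *Kmt2c*, *Kmt2d*, *Setd1a* and *Setd1b*, and the 4 genes of menin (*Men1*) and of the core subunits *Ash2l*, *Wdr5* and *Rbbp5*. RNA-seq was done once for each of 4 cell lines, shControl, shKDM4D, shNFIB and shMLL1, at day 0 and day 5 of differentiation, so that there are 8 libraries and no replicates. Day 0 cells were past confluence and had not been induced. Day 5 cells had been given insulin, dexamethasone and isobutylmethylxanthine, then insulin, then medium with serum, and the 4 lines received the same treatment. The knockdown lines carry a pLKO.1 vector with a short hairpin RNA against *Kdm4d*, *Nfib* or *Mll1* (*Kmt2a*). They were grown out under puromycin as isolated clones, so that a feature of 1 clone cannot be told apart from an effect of its hairpin, and the labels do not say which clone was sequenced. The labels give the shControl line as wild type, without the sequence of its hairpin.

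MLL/SET1 enzymes work as parts of large complexes. Each catalytic subunit carries a SET domain that is active only when it is bound to the shared core of WDR5, RBBP5, ASH2L and DPY30. MLL1 and MLL2 (*Kmt2a* and *Kmt2b*) use menin as an adaptor and trimethylate H3K4 at the promoters of selected genes, such as the homeobox genes. SETD1A and SETD1B give most of the trimethylated H3K4 at active promoters, and MLL3 and MLL4 (*Kmt2c* and *Kmt2d*) mainly monomethylate H3K4 at enhancers. MLL4 is known to be needed at the enhancers that are switched on when preadipocytes become fat cells.

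The values are RPKM, in which the reads of a gene are divided by its exon length and by the depth of the library, so that levels can be compared between genes. The reads behind each value were recovered from the RPKM, and the libraries held between 15800000 and 38200000 mapped reads. The intervals given with the log2 ratios are exact 95% intervals of the read counts. They hold counting error alone, and since each condition has 1 library, knockdowns and changes within 1 line are described without a test. A gene was counted as expressed when its RPKM was over 1 in at least 1 library, as in 11513 genes, and all 10 members passed. The mesenchymal markers had a summed RPKM of 1952 to 2579, led by *Vim* in each library, but *Nt5e* was almost absent from every library. *Ly6a*, another of them, went from 81.5 to 927 in shMLL1 cells, where it was above *Col1a1* (569) at day 5, and lay between 90.6 and 340.2 in the other 6 libraries. *Thy1* was at an RPKM of 25.0 and 22.6 in the shControl libraries, at 11.8 and 11.1 in the shMLL1 libraries and at most at 0.139 in the shKDM4D and shNFIB libraries. The defining markers of blood cells (*Ptprc*, at most 0.00559) and of epithelium (*Epcam*, 0 in each library) were at or near 0, but *Cd68* of the blood list was at 0.469 to 1.64 and *Cdh1* of the epithelial list at 0.430 to 1.63. The 7 adipocyte markers rose in their summed RPKM from 10.95 to 777 in shControl cells, but only from 7.42 to 38.6, from 7.40 to 12.01 and from 4.09 to 12.3 in shKDM4D, shNFIB and shMLL1 cells. The adipocyte markers thus moved with the shControl day 5 library, and their part in the day 5 ratios was not tested. In such bulk samples, more or fewer cells of a type cannot be told apart from more or less RNA per cell.

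RefSeq promoter windows (GRCm38.p6, 300 bases around the transcription start, most of them before it) were found for 7 of the 10 genes, that is *Kmt2a*, *Kmt2c*, *Kmt2d*, *Setd1a*, *Men1*, *Wdr5* and *Rbbp5*. The windows of *Kmt2a* (chr9:44881240-44881539, minus strand) and *Setd1a* (chr7:127777139-127777438, plus strand) are shown because these 2 genes varied most over the libraries. The *Setd1a* window lies wholly inside the gene as annotated in GENCODE M21 (from base 127776670), downstream of its annotated start. Both windows are written 5′ to 3′ with each CpG in capitals.
Kmt2a: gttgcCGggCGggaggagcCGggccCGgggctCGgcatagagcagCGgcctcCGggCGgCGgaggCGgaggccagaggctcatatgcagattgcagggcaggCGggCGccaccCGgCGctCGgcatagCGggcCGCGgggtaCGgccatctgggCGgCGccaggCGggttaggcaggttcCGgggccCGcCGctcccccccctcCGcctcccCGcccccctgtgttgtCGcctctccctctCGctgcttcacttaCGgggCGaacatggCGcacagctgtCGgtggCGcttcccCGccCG
Setd1a: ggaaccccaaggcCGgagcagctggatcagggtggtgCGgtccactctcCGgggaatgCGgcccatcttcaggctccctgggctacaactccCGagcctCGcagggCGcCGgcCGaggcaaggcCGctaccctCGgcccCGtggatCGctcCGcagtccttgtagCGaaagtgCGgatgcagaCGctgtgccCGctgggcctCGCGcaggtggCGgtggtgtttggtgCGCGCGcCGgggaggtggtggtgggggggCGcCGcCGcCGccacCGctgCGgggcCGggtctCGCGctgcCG
The *Kmt2a* window held 36 CpG and the *Setd1a* window held 35, against a median of 7 over all 27025 windows. The other windows held 56 (*Kmt2c*), 27 (*Kmt2d*), 22 (*Wdr5*), 16 (*Rbbp5*) and 11 CpG (*Men1*), so that all 7 lay above the median. GGGCGG, the letters of a GC box, stood on either strand of 5 of the 7 windows, all but those of *Setd1a* and *Rbbp5*, and in 35.9% of all windows. CCAAT stood only in that of *Men1* (37.9% of all windows). TATAAA (14.2% of all windows), CCGGAAG (9.12%) and the palindromic motif of NFI factors (0.04%) were in none of the 7. None of these strings contains another, and a match or its absence says nothing of binding.

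In shControl cells at day 0 the core subunits and menin were expressed above the catalytic subunits. *Rbbp5* had the highest RPKM at 15.02. *Wdr5* (10.4), *Men1* (10.1) and *Ash2l* (9.18) followed close to each other, and *Setd1a* led the catalytic subunits at 7.82. *Kmt2a* (5.17), *Kmt2d* (4.33) and *Kmt2b* (3.74) came next, with *Setd1b* (2.81) and *Kmt2c* (2.73) at the lower end. Only *Setd1a* crossed between the groups. It lay above *Ash2l* in shNFIB cells at day 0 (9.10 against 7.46), and in shMLL1 cells at day 0 its RPKM of 11.7 was above *Ash2l* at 9.94 and level with *Wdr5* at 11.6. Read counts of the members ran from 436 to 4190 per library. The highest RPKM over the lowest, over the 8 libraries, was 3.89 for *Kmt2a*, 2.90 for *Setd1a*, 1.90 for *Kmt2d*, 1.81 for *Wdr5* and 1.77 for *Kmt2c*, and between 1.41 and 1.58 for *Ash2l*, *Rbbp5*, *Setd1b*, *Men1* and *Kmt2b*. The median of this span was 2.07 over the expressed genes and 1.58 over the 9 members other than *Kmt2a*.

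**Figure D1:**
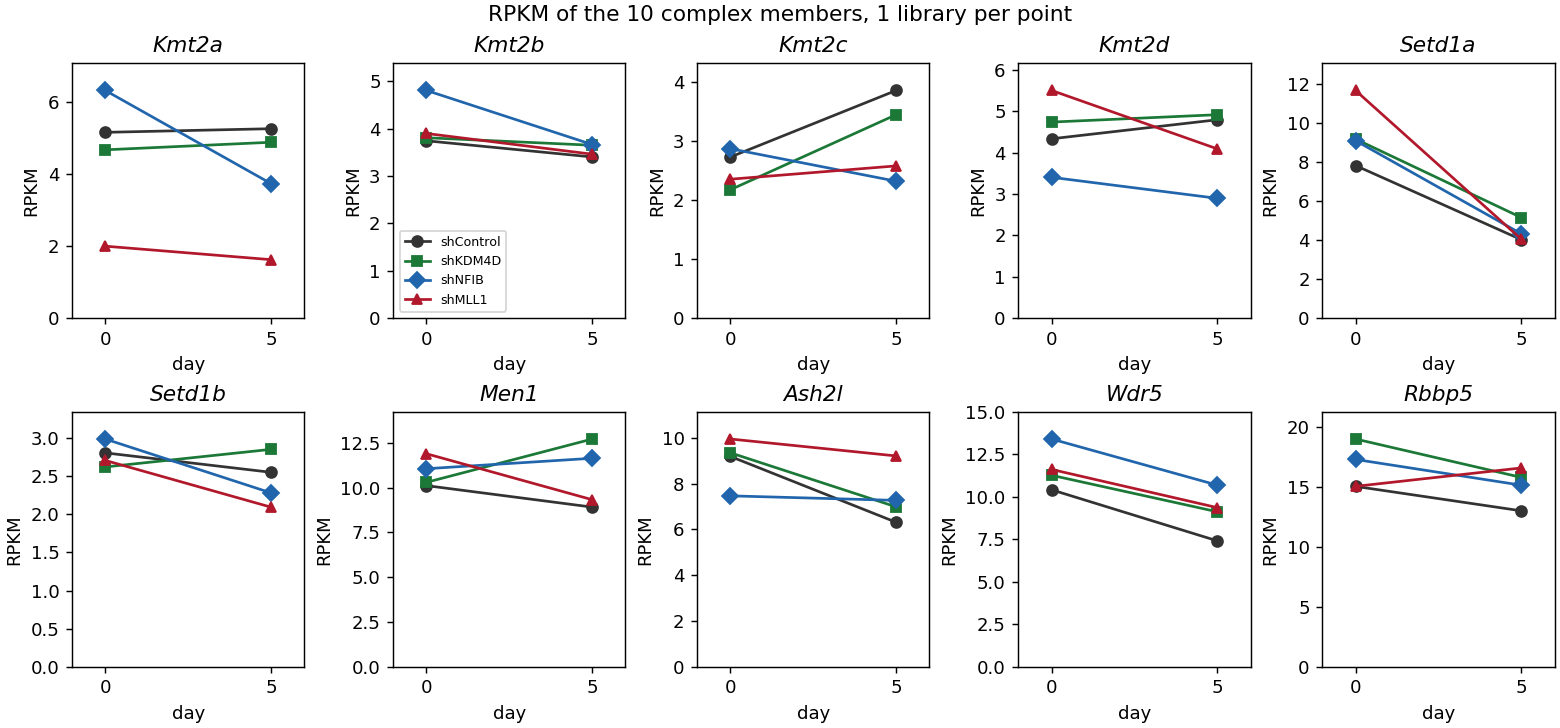
RPKM of the 10 genes (y axis, from 0) at day 0 and day 5 (x axis) in shControl, shKDM4D, shNFIB and shMLL1 cells, where each point is 1 library. *Kmt2a* is lowest in the shMLL1 libraries on both days (2.00 and 1.63), and *Setd1a* is lower at day 5 than at day 0 in each of the 4 lines.

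The first question was whether MLL1 depletion was accompanied by higher expression of another catalytic subunit. *Kmt2a* (chr9:44803355-44881296) had an RPKM at day 0 of 5.17 (shControl), 4.68 (shKDM4D), 6.33 (shNFIB) and 2.00 (shMLL1), and at day 5 of 5.27, 4.89, 3.74 and 1.63. The shMLL1 libraries were below all 6 others on both days. Relative to shControl cells the log2 ratio in shMLL1 cells came to -1.37 (-1.47 to -1.27) on day 0 and -1.70 (-1.81 to -1.58) on day 5, so that 0.387 and 0.309 of the shControl level was left. *Kmt2a* was the only member to differ by more than 1.5-fold from shControl cells, and it did so on both days. Of all expressed genes, 15.9% were lower by more than 1.5-fold at day 0 and 8.76% at day 5, and 4.73% and 12.4% were higher. None of the 9 other members was higher by 1.5-fold on either day. Their median log2 ratio was 0.11 at day 0 and 0.02 at day 5, against -0.07 and 0.07 over all expressed genes, and both medians turned negative with the ratio to *Gapdh* (-0.10 and -0.33). *Gapdh* itself ranged from an RPKM of 159 to 326 between the libraries.

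*Kmt2b* (chr7:30568858-30588726) encodes MLL2, the closest relative of MLL1, and varied little. Its RPKM was 3.74, 3.81, 4.81 and 3.90 at day 0 and 3.40, 3.65, 3.66 and 3.46 at day 5 in shControl, shKDM4D, shNFIB and shMLL1 cells. The span of 1.41-fold over the 8 libraries was larger than that of only 9.73% of the expressed genes. Its shMLL1 to shControl log2 ratios of 0.06 (-0.06 to 0.18) at day 0 and 0.02 (-0.11 to 0.16) at day 5 had intervals that held 0. These intervals hold counting error alone and set no upper limit to a rise. With quantile normalization the ratios were 0.19 and -0.09, and with the ratio to *Gapdh* -0.15 and -0.33. The RPKM of *Kmt2a* over that of *Kmt2b* was 1.38 and 1.55 in shControl cells at day 0 and day 5, and 0.513 and 0.470 in shMLL1 cells. It lay between 1.02 and 1.34 in the other 4 libraries.

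*Setd1a* (chr7:127776670-127800122) was, by its own RPKM, the member with the largest rise in shMLL1 cells. Its RPKM at day 0 was 7.82 (shControl), 9.18 (shKDM4D), 9.10 (shNFIB) and 11.7 (shMLL1). The day 0 log2 ratio of shMLL1 cells was 0.58 (0.49 to 0.67), just short of 1.5-fold (0.67 and past it with median-of-ratios scaling, 0.65 with quantile normalization and 0.61 when centred on genes of like exon length, but 0.37 with the ratio to *Gapdh*), and exceeded that of 95.1% of the expressed genes. At day 5 it was 0.01 (-0.14 to 0.16). A second annotated gene, *Gm49388* (chr7:127785608-127803802), lies on the same strand and shares 3523 exon bases with *Setd1a*, which are 51.8% of the *Setd1a* exons, so that reads there can be counted to either gene. In shMLL1 cells at day 0 *Gm49388* went the other way, with a log2 ratio of -0.53 (-0.66 to -0.40). With the reads of both genes summed, which was decided after the values were seen, the ratio became 0.22 (0.14 to 0.29) at day 0 and -0.06 (-0.16 to 0.04) at day 5. By the summed reads *Setd1a* did not have the largest rise at day 0, where *Kmt2d* (0.34) was higher.

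**Figure D2:**
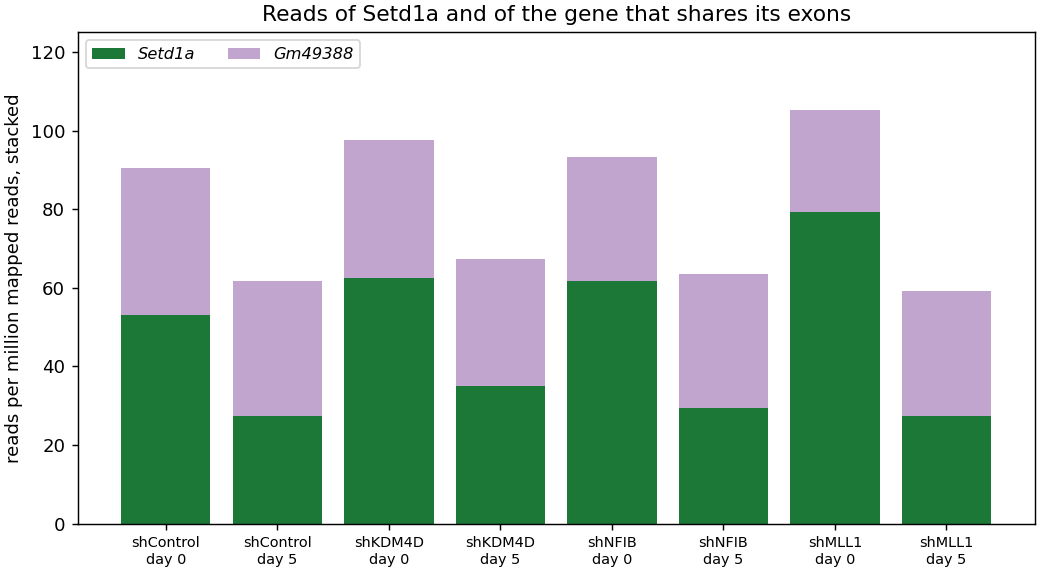
Reads of *Setd1a* (green) and of *Gm49388* (purple), stacked, per 1000000 mapped reads (y axis, from 0) in each of the 8 libraries. The summed reads are 59.1 to 67.4 in the day 5 libraries and 90.6 to 105 in the day 0 libraries, and the split between the 2 genes varies from library to library.

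*Setd1b* (chr5:123142193-123168629), the relative of *Setd1a*, did not rise in shMLL1 cells. Its RPKM was 2.81, 2.62, 2.99 and 2.71 at day 0 and 2.55, 2.85, 2.28 and 2.09 at day 5 in shControl, shKDM4D, shNFIB and shMLL1 cells. The shMLL1 to shControl log2 ratio was -0.05 (-0.18 to 0.07) at day 0, while the day 5 value was -0.29 (-0.43 to -0.14).

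*Kmt2c* (chr5:25271798-25498783) and *Kmt2d* (chr15:98831669-98871204), which encode the enhancer enzymes MLL3 and MLL4, were both below shControl cells in shMLL1 cells at day 5. The RPKM of *Kmt2c* was 2.73, 2.18, 2.88 and 2.36 at day 0 and 3.87, 3.45, 2.32 and 2.58 at day 5 in shControl, shKDM4D, shNFIB and shMLL1 cells. Its shMLL1 to shControl log2 ratio was -0.21 (-0.31 to -0.11) at day 0, while that of day 5 was -0.58 (-0.68 to -0.48), within counting error of 1.5-fold. The day 5 ratio was past it with median-of-ratios scaling (-0.64), quantile normalization (-0.76) and the ratio to *Gapdh* (-0.94). It was short of it with pseudocounts of 0.1 (-0.56) and 1 (-0.44) and when centred on genes of like exon length (-0.55). *Kmt2d* had an RPKM of 4.33, 4.74, 3.40 and 5.50 at day 0 and 4.79, 4.92, 2.89 and 4.09 at day 5. In shMLL1 cells it was above shControl cells at day 0 by 0.34 (0.27 to 0.42) and below them at day 5, with a log2 ratio of -0.23 (-0.31 to -0.15).

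Menin and the core subunits showed small differences in shMLL1 cells that were all upward where the interval left out 0. At day 5 this was not particular to shMLL1 cells. The median log2 ratio of these 4 genes was 0.29, 0.30 and 0.34 in shKDM4D, shNFIB and shMLL1 cells, all over the same shControl library. In shKDM4D and shNFIB cells *Ash2l* was at 0.15 and 0.20, *Wdr5* at 0.30 and 0.53 and *Rbbp5* at 0.28 and 0.22. *Men1* (chr19:6334979-6340891), the gene of the adaptor that MLL1 and MLL2 share, had a day 0 RPKM of 10.1 in shControl and 11.9 in shMLL1 cells, and a day 5 RPKM of 8.92 and 9.33, with log2 ratios of 0.23 (0.12 to 0.35) and 0.07 (-0.07 to 0.20). *Ash2l* (chr8:25815996-25847694) had an RPKM of 9.18 and 9.94 at day 0 and of 6.30 and 9.20 at day 5. Its log2 ratio of 0.55 (0.45 to 0.65) at day 5 was the highest of the members, above that of 86.2% of the expressed genes, and that at day 0 was 0.11 (0.04 to 0.19), or -0.10 with the ratio to *Gapdh*. At day 5 *Wdr5* (chr2:27515157-27536535) had an RPKM of 7.41 in shControl and 9.37 in shMLL1 cells, a log2 ratio of 0.34 (0.19 to 0.49), or -0.02 with the ratio to *Gapdh*. *Rbbp5* (chr1:132477365-132505659) had an RPKM of 13.0 and 16.6, a ratio of 0.35 (0.24 to 0.46), or -0.01 with the ratio to *Gapdh*. At day 0 the log2 ratio of *Wdr5* was 0.16 (0.04 to 0.27), or -0.05 with the ratio to *Gapdh*, and that of *Rbbp5* was 0.00 (-0.09 to 0.09). The paralog *Wdr5b*, which could share reads with *Wdr5*, had an RPKM of 1.55 to 2.86.

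**Figure D3:**
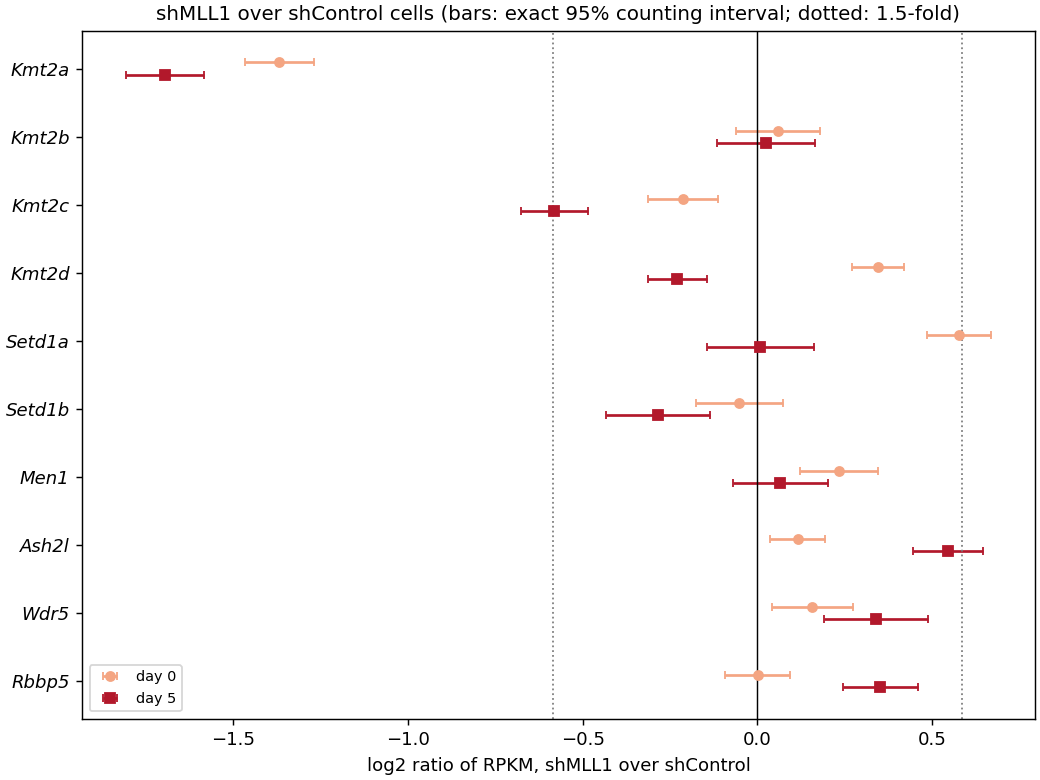
Log2 ratio of RPKM in shMLL1 over shControl cells (x axis) for the 10 genes (y axis) at day 0 and day 5, with exact 95% counting intervals as bars and 1.5-fold as dotted lines. *Kmt2a* alone lies outside the dotted lines, at -1.37 and -1.70, while *Setd1a* at day 0 and *Ash2l* at day 5 come closest to them on the right at 0.58 and 0.55.

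The balance between the 6 catalytic subunits followed these values. The share of *Kmt2a* in their summed RPKM was 19.4%, 17.2% and 21.5% in shControl, shKDM4D and shNFIB cells at day 0 and 22.0%, 19.6% and 19.5% at day 5, against 7.11% and 9.09% in shMLL1 cells. The share of *Setd1a* was between 29.4% and 33.7% in the other lines at day 0 and 41.5% in shMLL1 cells, and between 16.8% and 22.6% in the 4 lines at day 5. Without *Kmt2a* the day 0 sum was 21.4 in shControl and 26.1 in shMLL1 cells, of which *Setd1a*, with the shared exons described above, made up most of the difference. The day 5 sum was 18.6 in shControl against 16.3 in shMLL1 cells, so that no rise of the other enzymes in sum was seen there.

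**Figure D4:**
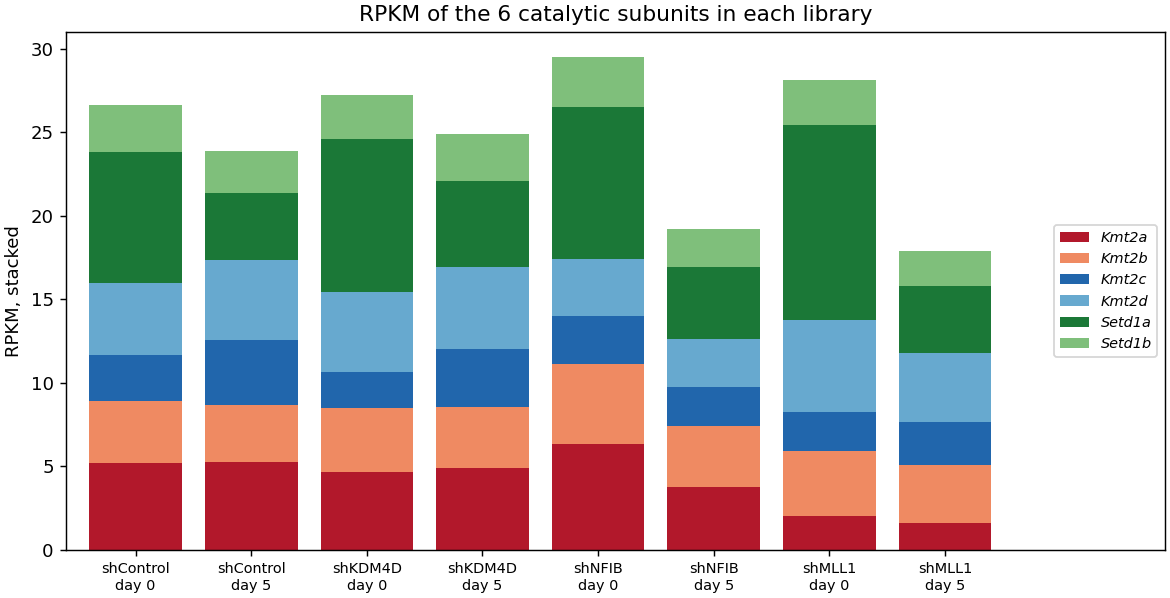
RPKM of the 6 catalytic subunits stacked on each other (y axis, from 0) in each of the 8 libraries (x axis). The sum runs from 17.9 in shMLL1 cells at day 5 to 29.5 in shNFIB cells at day 0, and the *Kmt2a* layer at the bottom is thinnest in the shMLL1 libraries.

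The second question was how the complexes change from day 0 to day 5. No line was sequenced uninduced at day 5, so that time in culture and the hormones cannot be told apart from differentiation. The adipocyte markers rose far less in the knockdown lines than in shControl cells. *Setd1a* fell from day 0 to day 5 in each of the 4 lines. Its RPKM went from 7.82 to 4.02 (shControl), from 9.18 to 5.15 (shKDM4D), from 9.10 to 4.32 (shNFIB) and from 11.7 to 4.04 (shMLL1). Each day 5 library lay below each day 0 library. The log2 change was -0.96 (-1.11 to -0.82), -0.83 (-0.97 to -0.70), -1.07 (-1.23 to -0.92) and -1.53 (-1.63 to -1.43). *Setd1a* was thus 1 of the 10 members past 1.5-fold downward in shControl cells, where 17.5% of the expressed genes were, and the only such member in shKDM4D and shMLL1 cells, with 16.8% and 15.6% of the expressed genes, while *Kmt2a* joined it in shNFIB cells (12.6%). No member was past 1.5-fold upward in shControl, shNFIB and shMLL1 cells, where 22.7%, 22.4% and 32.2% of the expressed genes were. The summed reads of *Setd1a* and *Gm49388* fell less, by 0.56 (-0.66 to -0.46), 0.53 (-0.63 to -0.44), 0.55 (-0.67 to -0.44) and 0.83 (-0.91 to -0.76) on the log2 scale, and only in shMLL1 cells by more than 1.5-fold. By the summed reads *Setd1a* did not have the largest change in shKDM4D and shNFIB cells, where *Kmt2c* (0.66) and *Kmt2a* (-0.76) changed more. *Gm49388* alone changed by -0.13, -0.12, 0.12 and 0.29 in the same order. The change of *Setd1a* in shMLL1 cells minus that in shControl cells was -0.57 (-0.75 to -0.39), and the same difference for the summed reads was -0.28 (-0.40 to -0.15).

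The 4 lines also allow a paired comparison of the days, with each line as its own block, which was added after the values were seen. The lines carry different hairpins, so that they are not replicates of 1 condition and the fit takes the change that they share. In this fit (limma on log2(RPKM + 0.1), adjusted p over the 11513 expressed genes) 28.1% of the expressed genes were higher and 20.0% lower at day 5, and 2 members were lower and none higher. The change of *Setd1a* was -1.08 ± 0.14 (SE, limma adjusted p = 0.00418), downward in 4 of 4 lines, and with the summed reads -0.61 ± 0.10 (limma adjusted p = 0.00697). *Wdr5* changed by -0.36 ± 0.09 (limma adjusted p = 0.0242), also downward in 4 of 4 lines, but this call was lost when any 1 line was left out (limma adjusted p 0.0580 to 0.101), without the block (0.0855) and with the ratio to *Gapdh* (0.426). The limma adjusted p of the 8 other members lay between 0.116 (*Ash2l*) and 0.834 (*Men1*), which does not show that they stayed the same.

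The core subunits *Ash2l*, *Wdr5* and *Rbbp5* were lower at day 5 in most lines, by less than 1.5-fold in RPKM as deposited. In shControl cells *Ash2l* (-0.65) and *Wdr5* (-0.60) passed 1.5-fold without the ribosomal RNA-like genes, and *Ash2l* (-0.59) did with median-of-ratios scaling. *Wdr5* had log2 changes of -0.49 (-0.65 to -0.34) in shControl cells and of -0.31, -0.33 and -0.31 in shKDM4D, shNFIB and shMLL1 cells, of which that in shKDM4D cells turned to 0.16 with the ratio to *Gapdh*. *Ash2l* fell by 0.54 (-0.65 to -0.44) in shControl cells. Its change of -0.42 in shKDM4D cells turned to 0.05 with the ratio to *Gapdh*, and it was -0.04 (-0.16 to 0.08) in shNFIB and -0.11 (-0.18 to -0.04) in shMLL1 cells. *Rbbp5* changed by -0.21, -0.27, -0.19 and 0.14 (0.06 to 0.22) in the same order, of which the change in shKDM4D cells turned to 0.20 with the ratio to *Gapdh* and that in shMLL1 cells turned to -0.07 with median-of-ratios scaling and to -0.04 when centred on genes of like exon length. *Men1* changed by -0.18 (-0.33 to -0.04) in shControl cells and rose by 0.30 (0.17 to 0.44) in shKDM4D cells. Its change was 0.07 (-0.07 to 0.22) in shNFIB cells and -0.35 (-0.45 to -0.25) in shMLL1 cells, so that the lines did not share a direction.

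*Kmt2c* was the catalytic subunit with the largest rise at day 5. It rose by 0.50 (0.40 to 0.60) in shControl and by 0.66 (0.54 to 0.79) in shKDM4D cells, where it was the only member past 1.5-fold upward, as were 21.9% of the expressed genes, but not past it with a pseudocount of 1 (0.49) or quantile normalization (0.54). In shMLL1 cells the change was 0.13 (0.04 to 0.22), which turned to -0.08 with median-of-ratios scaling and to -0.29 with quantile normalization, and in shNFIB cells *Kmt2c* fell by 0.31 (-0.44 to -0.17). *Kmt2d* changed by 0.15 (0.06 to 0.23) in shControl and 0.05 (-0.04 to 0.14) in shKDM4D cells, but fell by 0.23 (-0.36 to -0.11) in shNFIB and by 0.43 (-0.50 to -0.36) in shMLL1 cells. *Kmt2a* had changes whose intervals held 0 in shControl (0.03, -0.06 to 0.12) and shKDM4D cells (0.06, -0.04 to 0.16). It fell by 0.76 (-0.87 to -0.65) in shNFIB cells, past 1.5-fold (-0.55 and not past it when centred on genes of like exon length), and by 0.30 (-0.42 to -0.18) in shMLL1 cells. *Kmt2b* and *Setd1b* fell by 0.39 each in shNFIB cells, by 0.17 and 0.37 in shMLL1 cells, and had intervals that held 0 in the other lines.

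**Figure D5:**
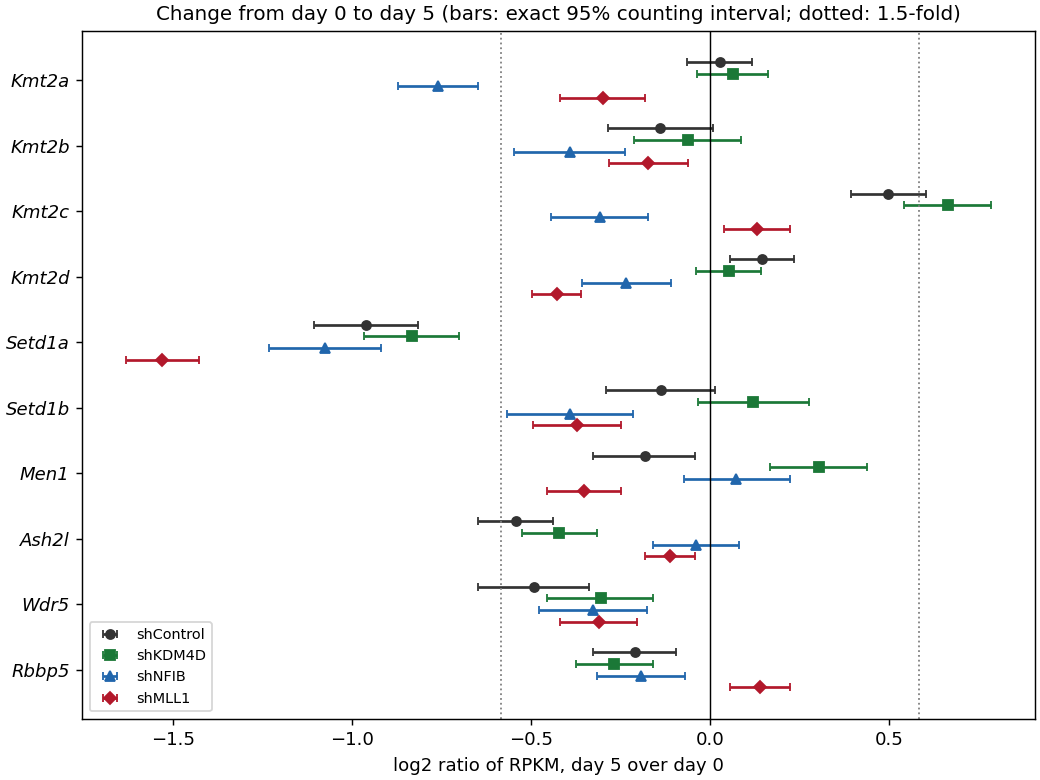
Log2 ratio of RPKM at day 5 over day 0 (x axis) for the 10 genes (y axis) in the 4 lines, with exact 95% counting intervals as bars and 1.5-fold as dotted lines. *Setd1a* is past 1.5-fold downward in each line (-0.83 to -1.53), and *Kmt2a* is so in shNFIB cells only (-0.76).

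*Kmt2a*, *Kmt2c* and *Kmt2d* changed downward in shNFIB and shMLL1 cells relative to shControl cells. They have 16.7, 20.3 and 19.9 kb of exon sequence, while *Men1*, *Wdr5* and *Rbbp5* have under 4 kb. The change in shNFIB cells minus that in shControl cells was -0.79 (-0.93 to -0.65) for *Kmt2a*, -0.81 (-0.98 to -0.64) for *Kmt2c* and -0.38 (-0.53 to -0.23) for *Kmt2d*, and 0.50 (0.35 to 0.66) for *Ash2l*, which has 8.97 kb. The same difference in shMLL1 cells was -0.33, -0.37 and -0.57 (-0.68 to -0.46) for the 3 long genes and 0.43 (0.31 to 0.56) for *Ash2l*. For *Setd1b*, which has 12.1 kb, the difference was -0.25 (-0.48 to -0.02) in shNFIB and -0.23 (-0.43 to -0.04) in shMLL1 cells. For *Kmt2b*, which has 9.60 kb, it was -0.25 (-0.46 to -0.04) and -0.03 (-0.22 to 0.15). The shorter members did not share a direction. In shMLL1 cells the difference was -0.57 (-0.75 to -0.39) for *Setd1a*, which has 6.80 kb, -0.17 for *Men1*, 0.18 for *Wdr5* and 0.35 (0.21 to 0.49) for *Rbbp5*, and in shNFIB cells -0.11, 0.26, 0.16 and 0.02. Exon length moved with the changes over all genes too. The 297 expressed genes with over 15 kb of exons had a median log2 change from day 0 to day 5 of -0.03 (shControl), -0.05 (shKDM4D), -0.30 (shNFIB) and -0.12 (shMLL1). In the 1146 expressed genes with the shortest exons it was 0.17, 0.10, 0.39 and 0.48. When centred on genes of like exon length, the changes in shNFIB cells were -0.55 for *Kmt2a*, -0.10 for *Kmt2c* and -0.03 for *Kmt2d*, in place of -0.76, -0.31 and -0.23. The centred changes in the same order were 0.04, 0.51 and 0.16 in shControl cells and -0.23, 0.20 and -0.36 in shMLL1 cells. The centred changes of these genes were below those of shControl cells in both knockdown lines, and the part of exon length in the differences was not tested.

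shNFIB and shKDM4D cells were compared with the same shControl libraries. In shNFIB cells no member differed from shControl cells by 1.5-fold at day 0, where 8.73% of the expressed genes were higher and 12.2% lower. At day 5 *Kmt2c* (-0.73, -0.86 to -0.61) and *Kmt2d* (-0.73, -0.84 to -0.61) were lower by more than 1.5-fold, as were 11.7% of the expressed genes, but not with a pseudocount of 1 (-0.55 and -0.57). At day 5 none was higher by that much (14.6% of the expressed genes), and *Kmt2a* had a log2 ratio of -0.49 (-0.61 to -0.38). The genes with over 15 kb of exons had a median of -0.08 there. *Wdr5* was higher in shNFIB cells on both days, by 0.36 (0.23 to 0.50) and 0.53 (0.36 to 0.70), and *Men1* at day 5 by 0.39 (0.23 to 0.54). *Kmt2b* was higher at day 0 by 0.36 (0.23 to 0.49), while *Kmt2d* (-0.35, -0.45 to -0.25) and *Ash2l* (-0.30, -0.40 to -0.20) were lower, but these 2 turned to 0.29 and 0.34 with the ratio to *Gapdh*. In shKDM4D cells no member differed by 1.5-fold on either day. At day 0, 5.39% of the expressed genes were higher and 8.72% lower by that much, and at day 5 5.22% and 9.38%. *Men1* had the largest ratio there, 0.51 (0.37 to 0.66) at day 5, with an RPKM of 12.7 against 8.92, which exceeded that of 93.1% of the expressed genes. *Rbbp5* was higher in shKDM4D cells by 0.34 (0.23 to 0.44) at day 0, or -0.06 with the ratio to *Gapdh*, and by 0.28 (0.16 to 0.40) at day 5. *Kmt2a* had ratios of -0.14 (-0.24 to -0.05) and -0.11 (-0.20 to -0.01).

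Further subunits of the complexes were examined as a list. Of 15 genes, all expressed, none was past 1.5-fold upward at day 5 in shControl cells and 5 were past it downward, beside 22.7% and 17.5% of the expressed genes. In shKDM4D, shNFIB and shMLL1 cells 2, 1 and 1 were past it upward, beside 21.9%, 22.4% and 32.2% of the expressed genes. Downward 1, 3 and 3 were past it, beside 16.8%, 12.6% and 15.6%. *Dpy30*, the remaining core subunit, went from an RPKM of 45.4 to 30.2 in shControl cells, a log2 change of -0.59, and changed by -0.53, -0.29 and -0.48 in shKDM4D, shNFIB and shMLL1 cells. *Psip1*, the gene of the chromatin factor LEDGF that binds menin and MLL1, fell from 77.5 to 38.1 in shControl cells, a change of -1.03, and by 1.21, 0.78 and 0.78 in the other lines. *Hcfc1*, whose protein is a subunit of the MLL1, MLL2 and SETD1 complexes, fell from 19.0 to 10.3 (-0.88), and its changes in the other lines were -0.48, -0.79 and -1.21. *Paxip1*, which encodes PTIP of the MLL3 and MLL4 complexes, fell from 5.86 to 2.96 (-0.99), with changes of -0.55, -0.46 and -0.68 in the other lines. *Pagr1a*, the partner of PTIP, was listed at an RPKM of 4.44 at day 0 and 0.217 at day 5 in shControl cells and at 0.250 to 1.87 in the other libraries, but 98.7% of its exon bases also belong to *Gm42742* on the same strand, so that its level is uncertain. In shMLL1 over shControl cells, 1 of the 15 was lower at day 0 and 3 were higher at day 5 by more than 1.5-fold, beside 15.9% and 12.4% of the expressed genes. The lower one was *Pagr1a* (-1.25), which is also among the higher ones (2.99) with *Psip1* (0.61) and *Paxip1* (0.68).

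Among 5 H3K4 demethylases, *Kdm5b* was the only gene past 1.5-fold with differentiation in shControl cells, where 22.7% of the expressed genes were higher and 17.5% lower. It rose from an RPKM of 1.19 to 4.72 in shControl cells, a log2 change of 1.99, and by 2.26, 1.39 and 2.86 in shKDM4D, shNFIB and shMLL1 cells. Of the 5, *Kdm5b* alone was past 1.5-fold in shMLL1 over shControl cells at day 0 (-1.05, beside 15.9% of the expressed genes lower), and none was at day 5. Among 13 readers of trimethylated H3K4, 2 were past 1.5-fold upward and 2 downward in shControl cells, beside the same 22.7% and 17.5%. *Ing4* (0.75) and the histone reader gene *Spin1* (0.69) were higher. *Sgf29* (-0.76), of the SAGA complex, and *Chd1* (-0.59), a chromatin remodeler gene, were lower, and 34.9% of the *Ing4* exon bases are shared with *Gm44597* on the same strand. None of the 13 readers was past 1.5-fold in shMLL1 over shControl cells on either day. Of 6 other SET domain enzymes linked to H3K4, 5 were expressed. None of the 5 changed by 1.5-fold in shControl cells. In shMLL1 over shControl cells at day 5 *Prdm9* (0.72) was higher and *Setd7* (-0.76) lower, beside 12.4% and 8.76% of the expressed genes, and none was past 1.5-fold at day 0.

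The textbook targets of MLL1 and menin were *Hoxa7*, *Hoxa9*, *Hoxa10*, *Hoxc8*, *Meis1*, *Cdkn1b* and *Cdkn2c*, and 5 of the 7 were expressed. In shMLL1 over shControl cells 2 of them were lower by more than 1.5-fold at day 0, and 1 was lower and 1 higher at day 5, beside 15.9%, 8.76% and 12.4% of the expressed genes. *Cdkn1b*, the gene of the cell cycle inhibitor p27, was lower at day 0 (-0.60), and *Hoxa10* was higher at day 5 (0.89, 0.54 to 1.24). *Cdkn2c*, which encodes the cell cycle inhibitor p18, was the 1 that was lower on both days. Its day 0 RPKM was 12.7 in shControl and 8.25 in shMLL1 cells, and that of day 5 was 12.5 and 5.81, log2 ratios of -0.62 and -1.11. It was also below shControl cells at day 5 in shKDM4D (8.27) and shNFIB cells (8.91), and these ratios share the shControl library. The median log2 ratio of the 5 targets was -0.19 at day 0 and -0.03 at day 5. From day 0 to day 5 *Hoxa10* rose from an RPKM of 0.872 to 1.38 in shControl cells (0.66), and by 0.54, 1.67 and 1.65 in shKDM4D, shNFIB and shMLL1 cells.

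The expressed genes whose level followed that of *Kmt2a* most closely over the 8 libraries were *Pam* and *Atl3* (Pearson's r of log2 values 0.95 each), *Ubn1*, *Ltbp2* and *Abhd10* (0.93 each). Each of the 5 was lowest in the 2 shMLL1 libraries, which come from the same line. *Ltbp2*, which encodes an extracellular matrix protein, had the largest difference, with an RPKM of 14.7 and 20.5 in shMLL1 cells against 48.6 to 62.2 in the other 6 libraries. Between members, the highest r was that of *Kmt2b* with *Wdr5* (0.85) and the lowest that of *Kmt2c* with *Ash2l* (-0.76), over the same 8 libraries.

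The hairpins against the other genes were checked in their own lines. *Nfib* had log2 ratios of -2.10 (day 0) and -2.33 (day 5) in shNFIB over shControl cells. *Kdm4d* had 1 read against 2 at day 0, which cannot show a knockdown, and 4 against 13 at day 5 in shKDM4D over shControl cells (-1.86, -3.94 to -0.17).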

How the data were processed

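RNA of 8 cultures was sequenced once each after SMARTer library preparation. The authors mapped the reads to GRCm38 (mm10) with CLC Genomics Workbench 11.0.1 and deposited RPKM per gene. The quantile normalization named in the methods is not visible in these values. RPKM times GENCODE M21 exon length gave whole reads (within 0.02) for 96.2% to 96.5% of the values between 1 and 1000 reads, and from these the depth was taken. Reads in exons shared by overlapping genes can be counted to either gene, and whether the counting used strand is not given in the sources used here.

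Groups were taken from the titles. Log2 ratios of RPKM without pseudocount were computed for 10 comparisons, 3 knockdowns over shControl on each day and day 5 over day 0 in 4 lines. Exact 95% conditional intervals on the reads cover counting error only. The interval of a difference of changes is a normal approximation. The fold for a call was 1.5, with 2, the fold of the study, as an alternative, over expressed genes (RPKM above 1 in 1 library or more). Medians and counts are descriptions without a test. Day 5 was compared with day 0 over the 4 lines by limma 3.58.1 (R 4.3.3) on log2(RPKM + 0.1) of the expressed genes, with the line as block, 3 residual degrees of freedom and Benjamini-Hochberg adjustment. This fit was added after the data were seen. All members are named, and in further lists the genes past 1.5-fold, with an interval without 0, in shMLL1 cells on both days or with differentiation of shControl cells. *Prdm9*, *Setd7* and *Cdkn1b*, past 1.5-fold in shMLL1 cells on a single day, are named outside this rule. The members and lists were chosen with earlier results of these data known. Alternatives were other scalings, pseudocounts of 0.1 and 1, other filters and centring on exon length. The calculations (python 3.11.15, numpy 2.4.6, pandas 2.3.3, scipy 1.17.1) were tested on simulated data. Number of value columns mapped to no sample: 0.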

Additional observations from a re-analysis of the deposited data

Results flagged for a closer look

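The 10 members were looked at in each of the 3 knockdown lines. In 5 cases the day 5 over day 0 change of a member had the opposite sign in a knockdown line and in shControl cells, with both counting intervals leaving out 0. The share of all expressed genes that meet this rule is not given, so that the 5 cases cannot be called many or few. Each line is 1 library per day, and the difference between the lines was not tested against any spread between cultures. For *Kmt2c* the change in shNFIB cells (-0.31) minus that in shControl cells (0.50) was -0.81. For *Kmt2d* the difference was -0.38 in shNFIB cells and -0.57 in shMLL1 cells, where the gene fell by 0.23 and by 0.43 against a change of 0.15 in shControl cells. When centred on genes of like exon length, the shNFIB changes shrank to -0.10 for *Kmt2c* and -0.03 for *Kmt2d*. The shControl change of *Kmt2d* shrank to 0.04 without the ribosomal RNA-like genes. *Men1* rose by 0.30 in shKDM4D cells and changed by -0.18 in shControl cells, a difference of 0.49. *Rbbp5* changed by 0.14 in shMLL1 and by -0.21 in shControl cells, a difference of 0.35, and its change in shMLL1 cells turned to -0.07 with median-of-ratios scaling. The adipocyte markers moved with the shControl day 5 library in the same comparisons, to a summed RPKM of 777 against 12.01 to 38.6 in the other lines, and their part in these differences was not tested.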

How the results depend on the processing

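A paired analysis was possible for the days alone, with the line as replicate block, since each knockdown has 1 library a day. In it 3233 expressed genes were higher and 2302 lower at day 5 (limma adjusted p under 0.05), 2574 and 1700 without the block, 2319 and 3009 with quantile normalization, 2809 and 2910 with median-of-ratios scaling and 1816 and 1075 with the ratio to *Gapdh*. Without 1 line in turn 2324 to 2430 were higher and 1461 to 1852 lower, the fewest lower without the shControl (1461) and shKDM4D lines (1485). *Setd1a* passed in each of these fits, and *Ash2l* (-0.38) with median-of-ratios scaling. The change of *Men1* (-0.04) ran from -0.15 to 0.065 with 1 line left out and turned upward without the shControl and without the shMLL1 line. Of the 72 ratios of members whose interval left out 0, 12 changed direction with the ratio to *Gapdh*, 2 with median-of-ratios scaling, 1 with quantile normalization and 1 when centred on genes of like exon length, and none without the ribosomal RNA-like genes or with either pseudocount. *Gapdh* moved the median of all expressed genes by up to 0.64 on the log2 scale. The *Kmt2a* ratio of shMLL1 to shControl cells was -1.14, -1.58 and -1.04 at day 0 with quantile normalization, the ratio to *Gapdh* and a pseudocount of 1, and -1.97, -2.05 and -1.26 at day 5. The median of the 9 other members at day 0 was 0.21 with median-of-ratios scaling, 0.19 with quantile normalization and -0.10 with *Gapdh*, and at day 5 -0.33 with *Gapdh*. The median change of the 10 members from day 0 to day 5 was -0.16, -0.00, -0.32 and -0.31 in shControl, shKDM4D, shNFIB and shMLL1 cells. With *Gapdh* it was 0.46, -0.88 and -0.42 in shKDM4D, shNFIB and shMLL1 cells, and in shMLL1 cells -0.51 with median-of-ratios scaling, -0.49 with quantile normalization and -0.42 without the ribosomal RNA-like genes. The number of members past 1.5-fold from shControl became 1 in shKDM4D and 8 in shNFIB cells at day 0 and 4 in shMLL1 cells at day 5 with *Gapdh*, 0 in shNFIB cells at day 5 with a pseudocount of 1 or a fold of 2, and 2 in shMLL1 cells on both days with median-of-ratios scaling or quantile normalization, and 2 at day 0 when centred on length. For the change from day 0 to day 5 it became 2 in shControl and shMLL1 cells with median-of-ratios scaling, 3 in shControl cells without the ribosomal RNA-like genes, 4 in shMLL1 cells and 1 in shKDM4D cells with quantile normalization, 1 in shKDM4D cells with a pseudocount of 1, 9 with *Gapdh* and 1 when centred on length in shNFIB cells, and 0, 0 and 1 in shControl, shKDM4D and shNFIB cells at a fold of 2. With *Gapdh* the median of all expressed genes itself moved by 0.64 in shNFIB over shControl cells at day 0. For the change from day 0 to day 5 in shNFIB cells it moved by -0.56, where 1.5-fold is 0.58 on the log2 scale. The share of all expressed genes past 1.5-fold is not given for these settings, so that these counts are not results about the members. By reads in place of RPKM, the share of *Kmt2a* among the catalytic subunits at day 0 was 24.5% (shControl), 22.5% (shKDM4D), 28.1% (shNFIB) and 9.81% (shMLL1) and at day 5 24.9%, 23.0%, 24.1% and 10.98%, since *Kmt2a* has long exons. Summing *Setd1a* with *Gm49388*, added after the data were seen, took the change of *Setd1a* from day 0 to day 5 below 1.5-fold in 3 of 4 lines. No cause of the *Setd1a* change or of the other changes was tested. Ribosomal RNA-like genes held 7.95% to 10.5% of reads at day 0 and 3.07% to 3.62% at day 5. At 436 to 4190 reads a member the counting intervals are narrow, and they say nothing about the spread between cultures, which these libraries cannot give.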
